A study of Bos taurus with 30 samples.

Results

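The genes of 6 receptors that bind, or were named for binding, steroid hormones were followed through cow endometrial cells grown in a microfluidic device. They were chosen by gene name in both count tables, which held 27607 genes in all, and each name matched 1 gene identifier. They were PGR (ENSBTAG00000024648), ESR1 (ENSBTAG00000007159), NR3C1 (ENSBTAG00000019472), NR3C2 (ENSBTAG00000027182), PGRMC1 (ENSBTAG00000019552) and PGRMC2 (ENSBTAG00000010843). Primary epithelial cells lay in the upper chamber and primary stromal cells in the lower chamber, on either side of a porous membrane, and both were kept under flow for 72 hours. The uteri came from nonpregnant cows in the early luteal phase, on Day 4 to 7 of the cycle. In the glucose experiment, cells of each type received 5 mM or 50 mM glucose, which gave 12 libraries. In the insulin experiment, they received vehicle, 1 ng/mL or 10 ng/mL insulin, all in medium with 5 mM glucose, which gave 18 libraries. Each of the 10 groups held 3 replicates. The cells were separated with mesh strainers, further purified by their plating times and not sorted. The paper checked the cell populations by flow cytometry for a keratin and for vimentin. No treatment was a steroid hormone. The vehicle was acetic acid in PBS.

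PGR is the nuclear progesterone receptor and ESR1 the nuclear estrogen receptor alpha. Both are ligand-activated transcription factors, and in the uterus estrogen acting through ESR1 is known to raise PGR, whereas progesterone lowers both receptors in the epithelium as the luteal phase goes on. NR3C1 is the glucocorticoid receptor and NR3C2 the mineralocorticoid receptor, which also binds cortisol. PGRMC1 and PGRMC2 are heme-binding proteins of the endoplasmic reticulum membrane that were named as progesterone receptor membrane components and are not related to the nuclear receptors.

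Counted reads per library ranged from 13493503 to 16647701 in the glucose experiment and from 8826470 to 13214728 in the insulin experiment. Levels are read counts relative to library size (CPM), scaled within each experiment by the trimmed mean of M-values (TMM) of edgeR. They are not corrected for gene length, so they compare libraries for 1 gene and not 1 gene with another. In bulk RNA of this kind, fewer cells with a transcript and less transcript per cell cannot be told apart. The 15 epithelial markers (keratins, CDH1, EPCAM and others) summed to 6359 to 16188 CPM in the epithelial libraries, and the 15 stromal markers (collagens, VIM, DCN and others) to 19575 to 88717 CPM in the stromal libraries. The other cell type was not absent. The stromal markers summed to 1083 to 6503 CPM in the epithelial libraries, and the epithelial markers to 1.33 to 344 CPM in the stromal libraries of the insulin experiment, 80.0 to 624 at 5 mM glucose and 1037 to 4510 at 50 mM glucose. The stromal library of replicate 3 at 50 mM held the 4510 CPM together with the lowest stromal sum of its cell type, 19575 CPM, and the epithelial library of replicate 2 at 5 mM held the highest epithelial sum, 16188 CPM. Of other cell types, 4 endothelial markers summed to at most 79.0 CPM, 3 leukocyte markers to at most 17.6 CPM, and 4 smooth muscle markers to 16.6 to 296 CPM in the epithelial libraries, and to 339 to 3333 CPM in the stromal ones. What part these other cells have in the receptor levels was not tested.

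The estrogen receptor gene ESR1 was higher in epithelial than in stromal cells, by 2.00-fold to 2.32-fold in the 3 insulin conditions. In the vehicle group, the epithelial libraries of replicates 1, 2 and 3 held 67.3, 70.7 and 64.2 CPM and the stromal libraries 37.2, 28.7 and 31.7 CPM. At 1 ng/mL insulin the epithelial libraries held 68.2, 71.1 and 60.4 CPM and the stromal libraries 28.9, 28.5 and 29.7 CPM. At 10 ng/mL they held 63.3, 68.5 and 68.0 CPM, against 33.1, 31.5 and 35.9 CPM in stromal cells. The lowest of these 9 epithelial libraries, at 60.4 CPM, was above the highest of the 9 stromal libraries, at 37.2 CPM. Groups that did not overlap, in either direction, were found for 67.5%, 68.2% and 67.8% of genes with vehicle, 1 ng/mL and 10 ng/mL. The share for 9 libraries against 9 was not counted.

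Groups were compared with the quasi-likelihood F-test of edgeR with the replicate number as a block, and p-values were adjusted over all genes tested by the Benjamini-Hochberg method. To be called, a gene needed an adjusted p-value under 0.05 and an absolute log2 fold change over 0.1. For ESR1 the log2 fold change between epithelial and stromal cells with vehicle was 1.07 (standard error 0.120, adjusted p = 0.00273). At 1 ng/mL it was 1.21 (standard error 0.110, adjusted p = 0.000527), and at 10 ng/mL it was 1.00 (standard error 0.0996, adjusted p = 0.00239). ESR1 was called in each of these under all 9 alternative settings, and the 9 fits that each left out 1 replicate gave 0.94 to 1.30. Cell type calls were common among the protein-coding genes. In the vehicle, 1 ng/mL and 10 ng/mL comparisons, 55.9%, 59.4% and 54.9% were called, of which 28.2%, 29.9% and 27.3% of all tested genes were higher in epithelial cells, so a call as such did not set ESR1 apart. The stromal library with the most epithelial marker RNA of this experiment, replicate 2 of the vehicle group with 344 CPM, had the lowest ESR1 of its group. Without replicate 2 the log2 fold change was 0.96. What part RNA of the other cell type, in stromal or epithelial libraries, has in the ESR1 difference was not tested.

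In the glucose experiment ESR1 lay on the same side with a wider spread. The epithelial libraries held 47.4, 46.5 and 57.6 CPM at 5 mM and 41.4, 67.9 and 43.5 CPM at 50 mM, and the stromal libraries 21.4, 32.0 and 45.2 CPM at 5 mM and 30.2, 34.9 and 32.3 CPM at 50 mM. At each concentration all 3 epithelial libraries were above all 3 stromal libraries, which was the case, in either direction, for 42.9% of genes at 5 mM and 35.4% at 50 mM. The log2 fold change was 0.68 (95% interval -0.11 to 1.47, adjusted p = 0.211) at 5 mM and 0.62 (95% interval 0.17 to 1.08, adjusted p = 0.0700) at 50 mM, so neither passed the test. Of all protein-coding genes, 21.5% were called at 5 mM and 17.6% at 50 mM. The stromal library with 4510 CPM of epithelial markers held 32.3 CPM of ESR1, between the other 2 stromal libraries at 50 mM. Without replicate 3 the log2 fold change was 0.71 (adjusted p = 0.0669 in edgeR). The part of this epithelial RNA in the ESR1 values was not tested. With library totals in place of TMM, which moved the median of all genes by 0.15, ESR1 was called at 50 mM (0.77, adjusted p = 0.0379). Whether the cell type difference itself differed between the 2 experiments was not tested.

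The progesterone receptor gene PGR showed the opposite order and was higher in stromal cells. With vehicle the stromal libraries held 16.3, 14.4 and 18.2 CPM and the epithelial libraries 11.7, 7.99 and 10.3 CPM. At 1 ng/mL insulin the stromal libraries held 12.1, 13.1 and 14.6 CPM and the epithelial libraries 10.3, 7.10 and 9.51 CPM. At 10 ng/mL they held 15.8, 15.3 and 19.8 CPM against 11.2, 7.17 and 10.7 CPM. The groups did not overlap at any dose, although the gap between the lowest stromal and the highest epithelial library at 1 ng/mL was narrow, and 67.5%, 68.2% and 67.8% of all genes had groups that did not overlap.

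Expressed as folds, PGR was 1.62, 1.47 and 1.76 times higher in stromal cells with vehicle, 1 ng/mL and 10 ng/mL. The log2 fold changes of epithelial against stromal cells were -0.70, -0.56 and -0.81, with standard errors of 0.153, 0.183 and 0.175. Their adjusted p-values from edgeR were 0.0169, 0.0441 and 0.0168, and 27.8%, 29.5% and 27.6% of protein-coding genes were called in that direction. These calls held without replicate 1 (-0.84, -0.73 and -0.98) and were lost without replicate 2 or 3. Without replicate 2 the log2 fold changes were -0.63, -0.41 and -0.69, and without replicate 3 they were -0.62, -0.53 and -0.78, with adjusted p-values from 0.0704 to 0.185 in edgeR, so that PGR was no longer called. At 1 ng/mL it was also not called by DESeq2 (-0.54, adjusted p = 0.131, where 50.9% of protein-coding genes were called), with relative log expression factors (-0.54, adjusted p = 0.0512) or with library totals (-0.45, adjusted p = 0.0843). The direction held in each of the 9 alternatives of the 3 comparisons.

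At 50 mM glucose the 3 stromal libraries, with 19.9, 17.0 and 18.2 CPM of PGR, were again above the epithelial libraries, with 9.79, 12.0 and 16.7 CPM, in a comparison where 35.4% of genes had groups that did not overlap. The log2 fold change was -0.54 (95% interval -1.14 to 0.06, adjusted p = 0.168 from edgeR). At 5 mM the groups overlapped, since the epithelial libraries held 11.5, 19.5 and 20.0 CPM and the stromal libraries 14.2, 14.5 and 42.9 CPM, and the log2 fold change was -0.32 (95% interval -1.33 to 0.68, adjusted p = 0.641). The stromal library of replicate 3 at 5 mM held the most PGR of the 30 libraries, of which the next held 20.0 CPM. It also held the most ESR1 of the stromal libraries, 45.2 CPM, and the lowest epithelial marker sum of its group, 80.0 CPM. Without replicate 3 the PGR difference at 5 mM was 0.06, of the other sign.

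**Figure D1:**
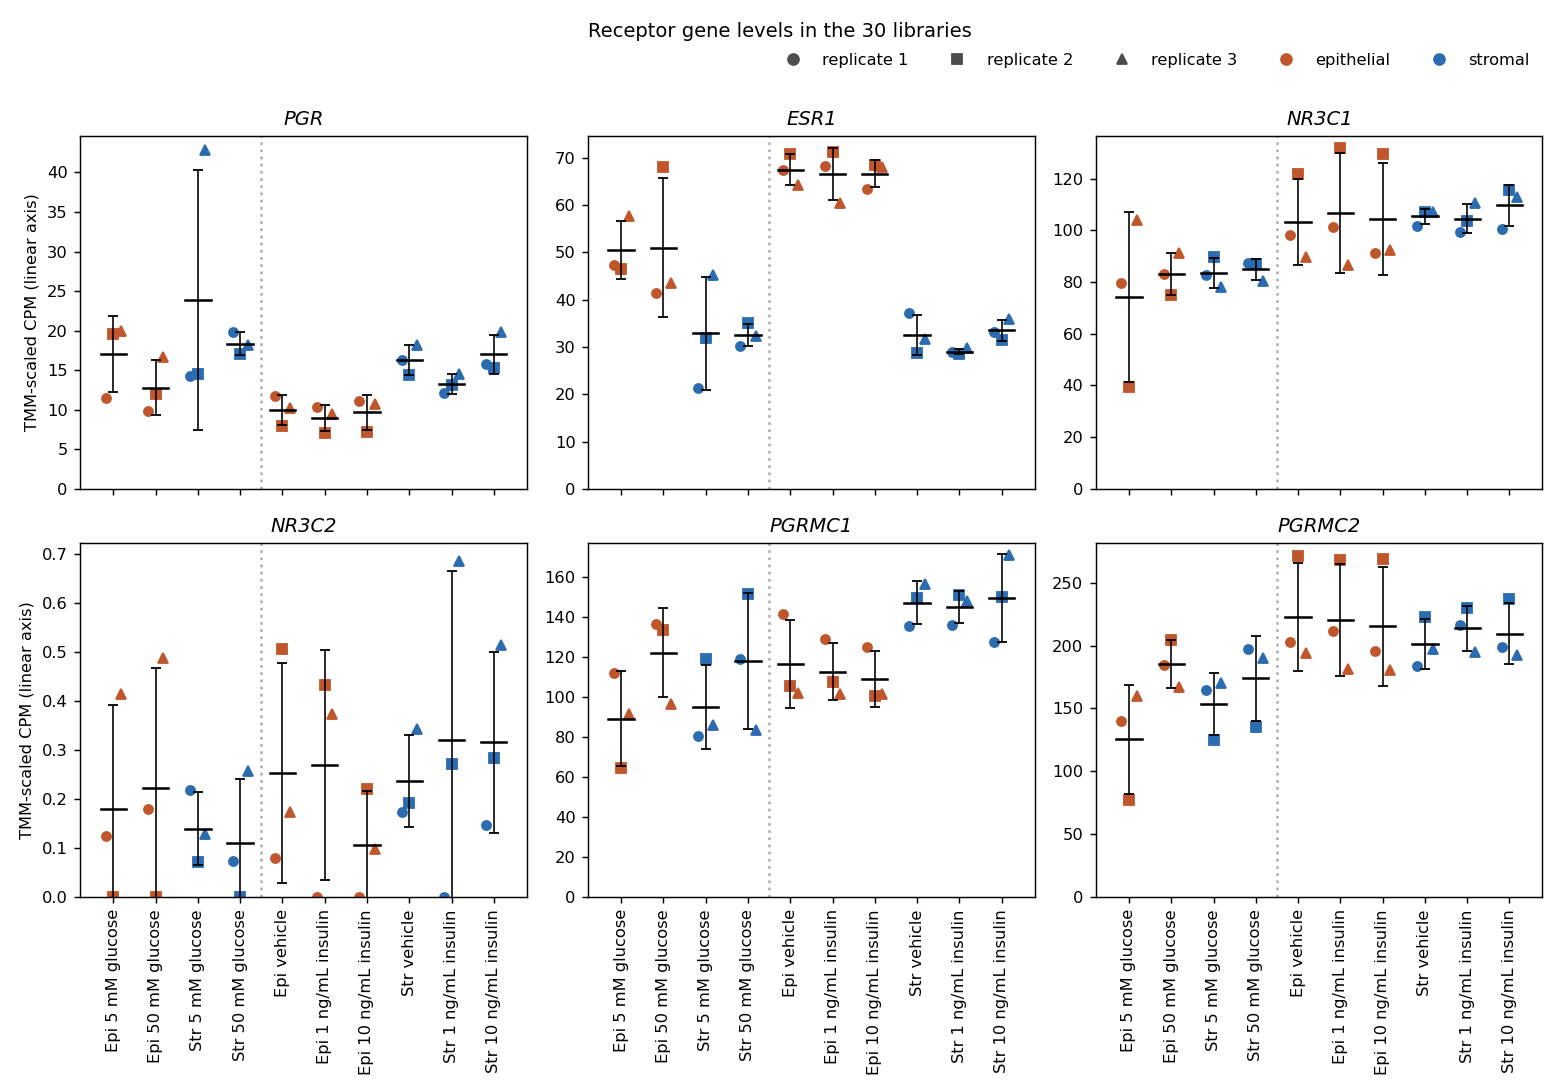
TMM-scaled CPM (linear axes from 0) of the 6 receptor genes in each of the 30 libraries, with epithelial (Epi) libraries in orange and stromal (Str) libraries in blue, replicates 1, 2 and 3 as circle, square and triangle, and the group mean ± SD (n = 3) in black. ESR1 lies between 60.4 and 71.1 CPM in the epithelial and between 28.5 and 37.2 CPM in the stromal libraries of the insulin experiment, PGR has the opposite order, and NR3C2 stays at or under 0.686 CPM.

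**Figure D2:**
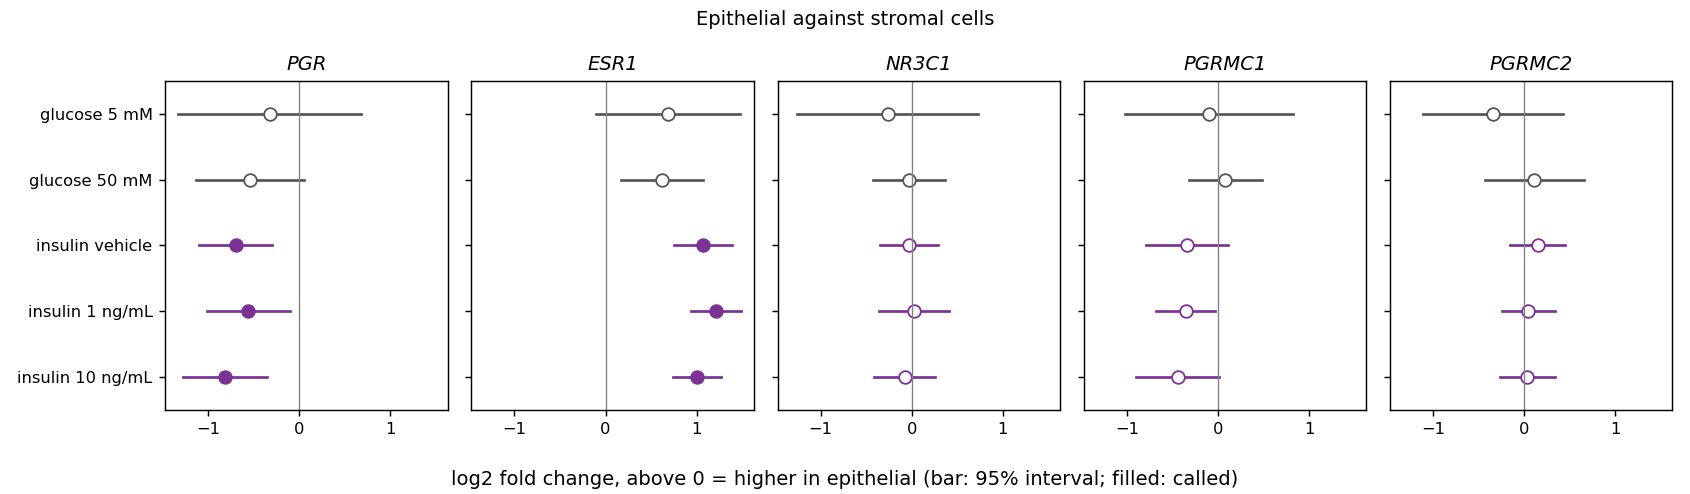
Log2 fold change of epithelial against stromal cells, above 0 when higher in epithelial cells, for the 5 receptor genes that were tested in the 5 conditions, with 95% intervals derived from the edgeR test as bars and called genes as filled points. The filled points are ESR1 and PGR in the 3 insulin conditions, and the intervals of NR3C1 and PGRMC2 include 0 in all 5 conditions.

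The same ESR1 and PGR reads were also set against each other within each library, where no scaling between libraries enters. This ratio restates the counts above, and a difference in 1 of the 2 genes is enough to move it. At 5 mM glucose, PGR itself overlapped between the cell types. In the insulin experiment an epithelial library held 5.67 to 10.0 ESR1 reads for each PGR read (median 6.35, n = 9), and a stromal library 1.74 to 2.38 (median 2.06, n = 9). In the glucose experiment the epithelial libraries held 2.38 to 5.68 (median 3.50, n = 6) and the stromal libraries 1.05 to 2.20 (median 1.65, n = 6). Epithelial and stromal libraries did not overlap in either experiment. How many other gene pairs separate in this way was not counted, and 35.4% to 68.2% of single genes did so within a condition. The geometric mean ratio was 2.01 and 2.24 times higher in epithelial cells at 5 mM and 50 mM glucose. It was 3.43, 3.42 and 3.54 times higher with vehicle, 1 ng/mL and 10 ng/mL insulin. An exact permutation test (two-sided), made without the replicate block, gave p = 0.1 for each of these 5 comparisons. That is the smallest value that 3 libraries against 3 allow, so the test could not fall under 0.05. The epithelial ratios of the glucose experiment were below those of the insulin experiment but for 1 library, although the 5 mM and the vehicle groups share the glucose concentration. The difference between the experiments was not tested.

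**Figure D3:**
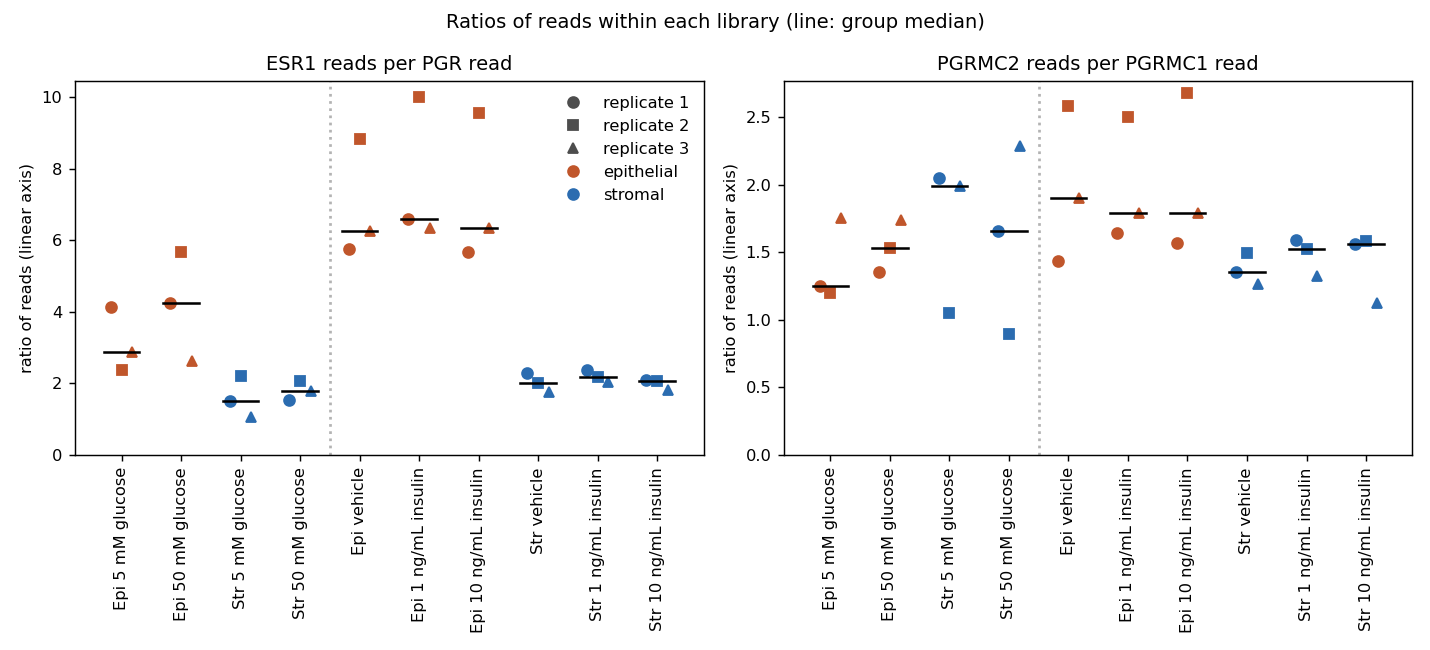
Reads of ESR1 for each read of PGR (left) and of PGRMC2 for each read of PGRMC1 (right) in each library on linear axes from 0, with epithelial (Epi) libraries in orange, stromal (Str) libraries in blue, replicates by symbol and the group median as a black line. The ESR1 to PGR ratio does not overlap between the cell types in either experiment (5.67 to 10.0 against 1.74 to 2.38 for insulin). How many other gene pairs separate in this way was not counted. The PGRMC2 to PGRMC1 ratio overlaps in both experiments.

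The glucocorticoid receptor gene NR3C1 was not called between the cell types, and its mean levels were similar in the insulin experiment. With vehicle the epithelial libraries held 98.2, 122 and 89.7 CPM and the stromal libraries 102, 107 and 107 CPM. The stromal values lay within the epithelial range, and the same held for the group means at 1 ng/mL (107 ± 23.1 CPM in epithelial and 105 ± 5.59 CPM in stromal cells, SD, n = 3) and 10 ng/mL (104 ± 21.8 and 110 ± 7.95 CPM). The log2 fold change of epithelial against stromal cells was -0.03 (95% interval -0.35 to 0.29, adjusted p = 0.857 from edgeR) with vehicle, 0.03 (-0.36 to 0.41) at 1 ng/mL and -0.08 (-0.41 to 0.26) at 10 ng/mL. In the glucose experiment the stromal libraries held 78.0 to 89.6 CPM, and 5 of the 6 epithelial libraries 74.8 to 104 CPM. The epithelial library of replicate 2 at 5 mM stood apart with 39.2 CPM. The log2 fold change at 5 mM was -0.27 with it (95% interval -1.26 to 0.73) and 0.20 without replicate 2. That interval is too wide to tell similar levels from a difference. At 50 mM it was -0.03 (95% interval -0.42 to 0.37). The sign of these small values changed with single replicates or with library totals, and NR3C1 was not called in any alternative.

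The mineralocorticoid receptor gene NR3C2 was close to the limit of detection. It had 0 to 8 reads in a library and 0 reads in 6 of the 30 libraries, and 22 libraries had 3 reads or fewer, the number that a count of 0 still allows. That number corresponds to 0.177 to 0.343 CPM, depending on the library, for counting error only. The 15 epithelial libraries held 40 reads in all and the 15 stromal libraries 39. NR3C2 did not pass the filter on low counts in any of the comparisons, so it was not tested there. A difference between cell types or treatments among such low counts could not be resolved at this depth.

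Neither of the membrane components, PGRMC1 and PGRMC2, passed the test between cell types. PGRMC1 leaned towards stromal cells in the insulin experiment, where the epithelial libraries held 141, 105 and 102 CPM with vehicle, 129, 107 and 101 CPM at 1 ng/mL and 125, 100 and 101 CPM at 10 ng/mL. The stromal libraries held 135, 149 and 156 CPM, 136, 151 and 148 CPM, and 127, 150 and 171 CPM at the same doses. The groups overlapped with vehicle, where epithelial replicate 1 was above stromal replicate 1, and did not overlap at 1 ng/mL and 10 ng/mL, as was the case, in either direction, for 68.2% and 67.8% of genes. The log2 fold changes were -0.34 (95% interval -0.79 to 0.11, adjusted p = 0.152), -0.35 (-0.68 to -0.03, adjusted p = 0.0592) and -0.44 (-0.90 to 0.01, adjusted p = 0.0873) in edgeR. Replicate 1 was the epithelial replicate with the most PGRMC1 at each dose, and without replicate 1 the values were -0.57, -0.50 and -0.66 and PGRMC1 was called (adjusted p = 0.0408, 0.0295 and 0.0246). One fit over the 18 libraries also called it at each dose, at -0.35, -0.37 and -0.46. The fits without the replicate block did so at 1 ng/mL and 10 ng/mL. In the main setting 55.9%, 59.4% and 54.9% of protein-coding genes were called at these doses. The shares under the alternatives were not counted, so these calls do not set PGRMC1 apart.

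PGRMC2 was at 203, 272 and 194 CPM in epithelial and 184, 223 and 197 CPM in stromal cells with vehicle, and replicate 2 was the highest in both cell types. At 1 ng/mL the epithelial libraries held 212, 269 and 181 CPM and the stromal libraries 216, 230 and 195 CPM, and at 10 ng/mL they held 196, 269 and 181 CPM and 199, 238 and 192 CPM. The log2 fold changes between the cell types were 0.15 (95% interval -0.15 to 0.45), 0.04 (-0.24 to 0.33) and 0.03 (-0.26 to 0.33). In the glucose experiment, neither gene passed the test between cell types, with -0.10 and 0.08 for PGRMC1 and -0.34 and 0.11 for PGRMC2 at 5 mM and 50 mM. Over all doses or concentrations, the ratio of PGRMC2 to PGRMC1 reads overlapped between cell types in both experiments, at 1.43 to 2.68 (epithelial) and 1.13 to 1.59 (stromal) in the insulin experiment, and at 1.20 to 1.75 (epithelial) and 0.893 to 2.28 (stromal) in the glucose experiment. Within single conditions the groups did not overlap at 1 ng/mL, as was the case for 68.2% of single genes there. The geometric mean ratio at 1 ng/mL was 1.32 times higher in epithelial cells (exact permutation test, two-sided, p = 0.1, the smallest that 3 against 3 allow). The groups overlapped in the other 4 conditions, with p from 0.2 to 0.9 in the same test.

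The comparison of 50 mM with 5 mM glucose asked whether a high sugar supply changes these receptors, and no receptor gene was called in either cell type. By edgeR, 0% of protein-coding genes were called in epithelial and 0% in stromal cells, while 201 (1.54%) and 646 (4.96%) had an unadjusted p under 0.05. DESeq2 called 0 (0%) and 169 (1.3%). None of the 5 tested receptor genes was among these at the unadjusted threshold. PGRMC2 had the highest fold change of the 5 in epithelial cells, with 140, 76.6 and 160 CPM at 5 mM and 184, 205 and 167 CPM at 50 mM. All 3 libraries at 50 mM were above the 3 at 5 mM, which was the case, in either direction, for 5.2% of genes. The log2 fold change of 0.63 (95% interval -0.17 to 1.42, adjusted p = 0.804) fell to 0.23 without replicate 2, whose library at 5 mM had the lowest PGRMC2, PGRMC1 and NR3C1 of the 30 libraries and the highest epithelial marker sum.

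PGRMC1 in epithelial cells was at 112, 64.0 and 91.1 CPM at 5 mM and 136, 133 and 96.3 CPM at 50 mM, which was higher in 3 of 3 pairs but with groups that overlapped (log2 fold change 0.47, 95% interval -0.20 to 1.15, adjusted p = 0.804 from edgeR, and 0.18 without replicate 2). In stromal cells it was at 80.2, 119 and 85.7 CPM at 5 mM and 119, 151 and 83.2 CPM at 50 mM (0.29, 95% interval -0.11 to 0.68, adjusted p = 0.696). PGRMC2 in stromal cells was at 165, 125 and 170 CPM at 5 mM and 197, 135 and 190 CPM at 50 mM, higher in 3 of 3 pairs, with 0.17 (95% interval -0.11 to 0.45). For NR3C1 the epithelial value was 0.27 (95% interval -0.46 to 0.99) and the stromal value 0.02 (-0.25 to 0.29). For PGR, whose libraries are given above, the difference was -0.40 in epithelial cells (95% interval -1.03 to 0.23) and -0.18 in stromal cells (-1.21 to 0.85). For ESR1 it was -0.02 (-0.69 to 0.66) and 0.04 (-0.53 to 0.62). The wide stromal interval of PGR goes with replicate 3, without which its value was 0.33. The stromal groups also differed in epithelial marker RNA, with 80.0 to 624 CPM at 5 mM and 1037 to 4510 CPM at 50 mM, and its part in the stromal values was not tested.

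**Figure D4:**
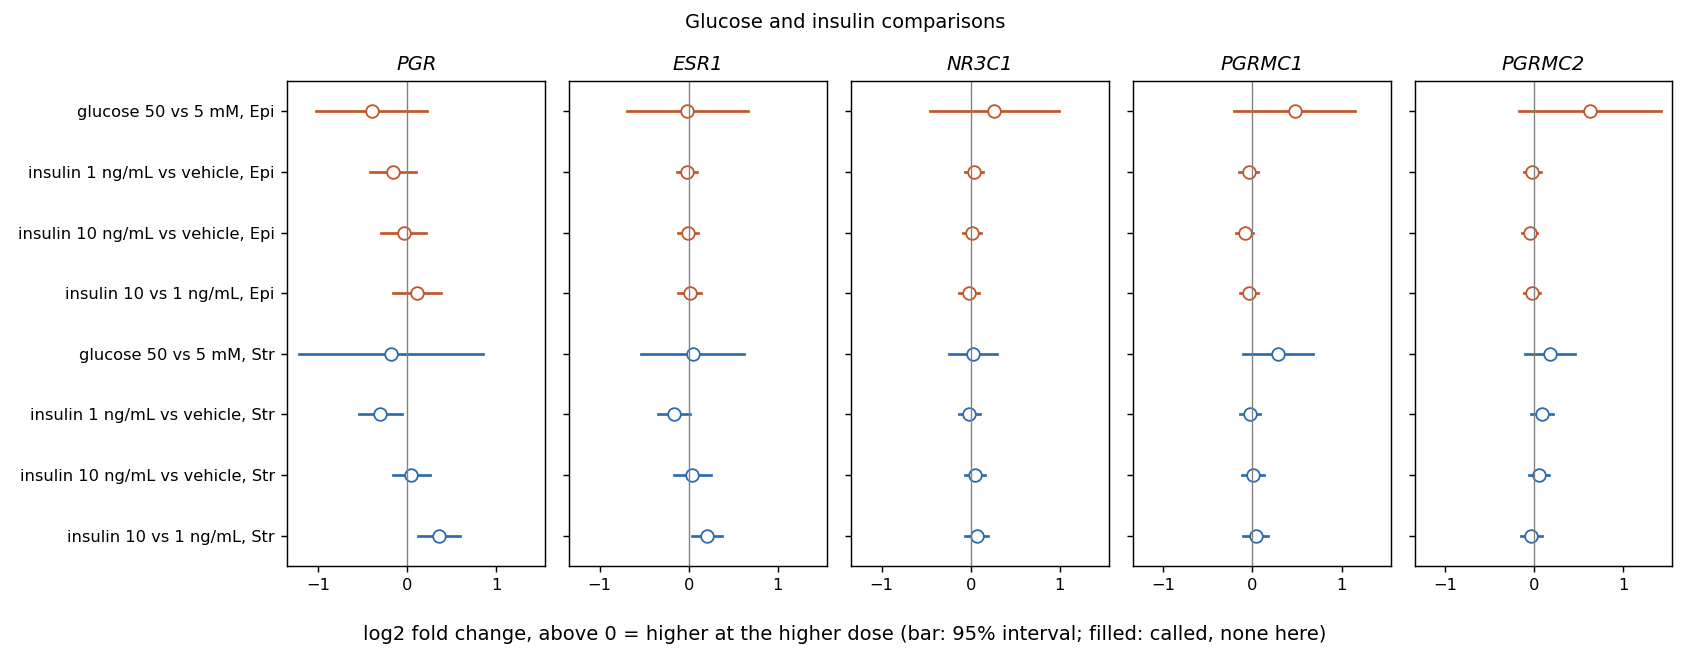
Log2 fold change of the 5 tested receptor genes in the glucose and insulin comparisons, above 0 when higher at the higher concentration, with epithelial (Epi) comparisons in orange, stromal (Str) comparisons in blue and 95% intervals derived from the edgeR test as bars. Open points were not called, which holds for all 40, and the intervals of the glucose comparisons are wider than those of the insulin comparisons for the same gene and cell type.

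For insulin at 1 ng/mL or 10 ng/mL, 0 receptor genes were called in the 6 comparisons by edgeR or DESeq2. Of all protein-coding genes, edgeR called 0%, 0.113% and 0% in epithelial cells for 1 ng/mL and 10 ng/mL against vehicle and 10 against 1 ng/mL, and 0%, 0% and 0.0244% in stromal cells. In the same order, 2.87%, 6.78% and 4.29% of genes in epithelial and 5.03%, 2.73% and 3.68% in stromal cells had an unadjusted p under 0.05. DESeq2 called 0.00814% of genes for 10 against 1 ng/mL in stromal cells and 0% in the other 5 comparisons. Among the 30 tests of the receptor genes, 3 had an unadjusted p under 0.05, and all were in stromal cells. PGR was lower at 1 ng/mL than with vehicle (log2 fold change -0.30, standard error 0.110, unadjusted p = 0.0178, adjusted p = 0.917 in edgeR) and higher at 10 ng/mL than at 1 ng/mL (0.35, standard error 0.107, unadjusted p = 0.00711, adjusted p = 0.997). ESR1 was higher at 10 ng/mL than at 1 ng/mL (0.21, standard error 0.0750, unadjusted p = 0.0190, adjusted p = 1.00). These comparisons share the 1 ng/mL libraries, and between 10 ng/mL and vehicle the values were 0.05 (95% interval -0.16 to 0.26) for PGR and 0.04 (-0.17 to 0.25) for ESR1. In stromal cells, all 3 libraries at 10 ng/mL were above all 3 at 1 ng/mL for both genes, as was the case, in either direction, for 3.78% of genes.

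For NR3C1, PGRMC1 and PGRMC2 the insulin intervals were narrow. The 6 log2 fold changes were -0.02 to 0.07 for NR3C1, -0.08 to 0.04 for PGRMC1 and -0.05 to 0.08 for PGRMC2, and the outermost interval bounds were -0.13 and 0.19, -0.18 and 0.18, and -0.15 and 0.21. In epithelial cells, ESR1 was between -0.02 and 0.01 in the 3 insulin comparisons, with bounds from -0.14 to 0.14. In epithelial cells, the replicate means of each tested receptor gene spanned a wider range than the dose means. The epithelial PGRMC2 of replicate 2, averaged over the 3 doses, was 270 CPM, against 204 and 185 CPM for replicates 1 and 3, a range of 84.6 CPM, while the dose means over the replicates spanned 7.46 CPM. For epithelial NR3C1 the replicate means were 96.8, 128 and 89.6 CPM and the dose means spanned 3.46 CPM. Replicate 2 was the lowest in epithelial PGR at each dose, with a mean of 7.42 CPM against 11.1 and 10.2 CPM. In stromal cells it was the other way for PGR, whose dose means spanned 3.74 CPM and replicate means 3.26 CPM, and for ESR1, with 4.50 and 3.47 CPM. Stromal NR3C1, PGRMC1 and PGRMC2 varied more between replicates, by 9.61, 25.5 and 35.3 CPM, than between doses, by 5.15, 4.54 and 12.5 CPM.

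A test of whether the treatment effect itself differed between the cell types called 0 receptor genes for 50 mM glucose, 1 ng/mL and 10 ng/mL insulin, where 0%, 0.659% and 0% of protein-coding genes were called by edgeR. None of these 15 tests had an unadjusted p under 0.05, which 7.65%, 6.69% and 4.05% of genes had, and DESeq2 also called 0 receptor genes, against 1.71%, 0.195% and 0% of all genes. The highest value was that of PGRMC2 for glucose, which was 0.45 higher in epithelial cells on the log2 scale (95% interval -0.43 to 1.33, adjusted p = 0.787) and -0.01 without replicate 2. For PGR the interval of the difference in the glucose effect was -1.35 to 0.90, and for ESR1 it was -0.93 to 0.80.

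Genes that work with these receptors were counted in 7 lists, of which 79 of 84 genes had a name in the tables. In the vehicle comparison of epithelial with stromal cells, 69 were tested, 22 were called higher in epithelial cells and 13 higher in stromal cells, where 28.2% and 27.8% of all protein-coding genes were called. Of 4 further receptors tested, 2 were higher in epithelial cells and 1 in stromal cells. The membrane progestin receptor gene PAQR8 was at 224, 308 and 252 CPM in epithelial and 6.28, 14.7 and 8.58 CPM in stromal libraries (log2 fold change 4.81, standard error 0.203, adjusted p = 0.000899). PAQR5, of the same family, was at 6.83, 4.35 and 9.14 CPM against at most 0.667 CPM. The median log2 fold change of the 4 was 2.50, against -0.002 over all genes, so PAQR8 and PAQR5 lay on the side of ESR1.

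Of 12 chaperones that hold steroid receptors ready for ligand, 4 were higher in epithelial and 2 in stromal cells (median 0.18), against 28.2% and 27.8% of all protein-coding genes. FKBP5, a cochaperone that lowers the affinity of NR3C1 for glucocorticoid and is itself raised by it, was at 95.9, 98.2 and 99.6 CPM in epithelial and 5.16, 8.00 and 6.29 CPM in stromal libraries (log2 fold change 3.94, adjusted p = 0.000899) and was called in all 5 cell type comparisons. ST13, HSP90AB1 and BAG1 differed less, with 0.70, 0.52 and -0.46. Of 12 coregulators 2 were called, where 55.9% of all protein-coding genes were called. Both were higher in epithelial cells (median of the 12 0.18), the coactivator gene NCOA2 with 0.54 and the corepressor gene NCOR1 with 0.36. Of 10 steroid-converting enzymes, 5 were higher in epithelial and 1 in stromal cells (median 0.81), against the same 28.2% and 27.8% of genes. HSD11B1, which regenerates active glucocorticoid, was at 4.32, 5.56 and 16.1 CPM in epithelial and at most 0.476 CPM in stromal libraries. HSD17B11, a 17-beta-hydroxysteroid dehydrogenase, was 2.49 higher on the log2 scale in epithelial cells, HSD17B7, which acts in estradiol and cholesterol synthesis, was 1.47 higher, and HSD3B1, which makes progesterone from pregnenolone, was at 0.949 to 5.46 CPM in epithelial and at most 1.14 CPM in stromal libraries. Of the 5 cell type comparisons, HSD3B1 was called in 1, and ST13, HSP90AB1, BAG1, NCOR1, HSD17B11 and HSD17B7 in 3. NCOA2 was called in 4 and HSD11B1 in all 5.

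Of 11 known glucocorticoid receptor targets, 3 were higher in epithelial and 3 in stromal cells (median -0.14), against 28.2% and 27.8% of all protein-coding genes. Beside FKBP5, the sodium channel gene SCNN1A was at 34.3, 45.1 and 22.0 CPM in epithelial and at most 1.91 CPM in stromal libraries. TSC22D3, which encodes the glucocorticoid-induced leucine zipper, was the other way, at 8.56, 9.31 and 14.3 CPM in epithelial and 81.9, 67.7 and 82.6 CPM in stromal libraries (-2.86, adjusted p = 0.000972), and so was the transcription factor gene KLF9 (-1.31). These targets lay on opposite sides, while NR3C1 itself differed between the cell types by less than the spread between replicates. Of 12 estrogen and progesterone receptor targets, 4 were higher in epithelial and 5 in stromal cells (median -0.08), against the same shares of all genes. OXTR, the oxytocin receptor, was at 105, 77.8 and 83.8 CPM in epithelial and at most 0.857 CPM in stromal libraries, and the growth factor gene AREG at 47.1, 81.4 and 61.1 CPM against at most 1.62 CPM. The mucin gene MUC1 was at 268, 342 and 375 CPM in epithelial and 0.258, 14.7 and 0.229 CPM in stromal libraries, with the 14.7 CPM in the library that held 344 CPM of epithelial markers. DKK1, an inhibitor of WNT signalling, was at no more than 0.157 CPM in epithelial and 9.12, 89.7 and 30.0 CPM in stromal libraries. Many of these genes are also known as markers of 1 cell type, and HAND2 stood both here and among the stromal markers.

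Of 9 genes related to PGRMC1 and PGRMC2 by family or by interaction, 3 were higher in epithelial cells and 1 in stromal cells (median 0.09), against 28.2% and 27.8% of all protein-coding genes. INSIG1, which retains the sterol sensor in the endoplasmic reticulum, was 1.57 higher on the log2 scale in epithelial cells, TMEM97, the sigma-2 receptor, 1.16, and CYP51A1, a cytochrome of cholesterol synthesis, 1.02, while NENF, of the family of PGRMC1, was at -0.55. When 1 replicate was left out, some of these calls no longer passed. Without replicate 1 these included MUC1 (6.45), NENF (-0.54), HSP90AB1 (0.47), BAG1 (-0.49) and NCOR1 (0.40). Without replicate 2 they were NENF (-0.49), BAG1 (-0.48), NCOA2 (0.42), NCOR1 (0.34) and HSD3B1 (4.11), and without replicate 3 HSP90AB1 (0.47), BAG1 (-0.41), NCOA2 (0.53), NCOR1 (0.36) and HSD3B1 (3.44). In the glucose and insulin comparisons, 0 genes of the 7 lists were called by edgeR. FKBP5 stands in 2 lists and counts as 2 entries. At an unadjusted p under 0.05 in edgeR there were 1 entry of 70 in epithelial and 8 of 71 in stromal cells for glucose. Of all protein-coding genes, 1.54% and 4.96% were under it there. In each of the 6 insulin comparisons there were 1 to 8 entries of 63 to 69 tested, against 2.73% to 6.78% of all protein-coding genes.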

How the data were processed

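The 30 libraries were stranded and sequenced as 75 bp single-end reads. Trimming (cutadapt) and quality filtering were followed by alignment in Rsubread, for which the authors used the Ensembl release 96 cow genome and kept unique alignments. They deposited raw counts of reads per gene from featureCounts. Gene names and types came from the text columns of the authors' comparison tables, whose fold changes and p-values (DESeq2) were not used. The study states 3 biological replicates per group and a paired design.

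Counts were tested with edgeR 4.0.16 (quasi-likelihood test, TMM, filterByExpr, replicate block) on the 2 groups compared, in 13 comparisons of 2 groups and 3 tests of a difference in effect between cell types. Standard errors were derived from the test as the absolute log2 fold change over the square root of the F statistic. The 95% intervals were formed from them with a t quantile. Percentages called are over protein-coding genes. DESeq2 1.42.0, no block, 2 other scalings, no filter, 1 fit per experiment and leaving out each replicate were the alternatives. The fits were tested on simulated data. No 2 libraries were identical. Same-numbered libraries deviated together (r of 0.216 to 0.856) in the 8 treatment comparisons. For glucose in stromal cells, however, differently numbered libraries reached 0.267, above the lowest same-numbered r of 0.216. In the 5 cell type comparisons the lowest same-numbered r was 0.0297 at 5 mM glucose and 0.0753 at 10 ng/mL. Differently numbered libraries reached 0.0834 and 0.0172 there, so pairing of the cell types was weak in these 2 comparisons.

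The 6 genes and the 7 lists were chosen with earlier results of these data known. Of each list, up to 4 called genes with the largest absolute log2 fold change in the vehicle cell type comparison were named. Sequences, coordinates and gene lengths were not used here. Results of 1 gene of the lists and of 1 of the correlated genes are left out here.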

Additional observations from a re-analysis of the deposited data

Results flagged for a closer look

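Of 29 named and tested genes, only the epithelial mucin gene MUC1 had a called difference between the cell types in an insulin effect. The call was for 1 ng/mL against vehicle, where 0.659% of all protein-coding genes were called. For 10 ng/mL insulin or for glucose 0 were called, as were 0% of all protein-coding genes. The list genes were named for large fold changes in the vehicle cell type comparison, whose libraries also enter this test. The difference, epithelial minus stromal, was 3.24 on the log2 scale (standard error 0.610 and, in edgeR, adjusted p = 0.0169). In epithelial cells MUC1 was at 268, 342 and 375 CPM with vehicle and 281, 365 and 377 CPM at 1 ng/mL. In stromal cells it was at 0.258, 14.7 and 0.229 CPM with vehicle, which are 3, 154 and 2 reads, and at 0.382, 0.361 and 0.857 CPM at 1 ng/mL. The stromal library with 154 reads is replicate 2 of the vehicle group, whose 15 epithelial markers summed to 344 CPM, where the other 2 vehicle libraries held 5.26 and 9.29 CPM. Without replicate 2 the MUC1 difference was -1.22 (adjusted p = 0.783 in edgeR), of the opposite sign. What part the epithelial RNA in that library has in the MUC1 difference was not tested. DESeq2 gave 0.68 and did not call it, and without the replicate block it was 3.30 with an adjusted p of 1.00. None of the 6 receptor genes met a criterion for a closer look.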

How the results depend on the processing

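The calls of ESR1 in the 3 insulin cell type comparisons held in all 9 alternatives. Those of PGR held in 7, 4 and 7 of 9 (vehicle, 1 ng/mL, 10 ng/mL). Of the 5 receptor genes tested, 2 were called in each of these comparisons, and 1 at 1 ng/mL with DESeq2, with relative log expression factors or with library totals. Leaving out 1 replicate gave 1 to 3. At 50 mM glucose library totals called 1, where otherwise 0 were called, and 0 were called in any setting at 5 mM or in the glucose, insulin and interaction comparisons. Among the lists, coregulators called in the vehicle comparison went from 2 to 4 with DESeq2 or library totals, 1 without the filter on low counts, 7 in one fit over the experiment and 0 to 1 on leaving out a replicate. Chaperones went from 6 to between 2 and 3 on leaving out a replicate, and further receptors from 3 to 5 in one fit. Library totals moved the median of all genes between cell types by 0.22, 0.15, 0.08, 0.11 and 0.11 on the log2 scale (5 mM, 50 mM, vehicle, 1 ng/mL, 10 ng/mL) and turned the sign of PGRMC1 at 5 mM (0.12), of NR3C1 at 50 mM (0.12), vehicle (0.051) and 10 ng/mL (0.028), and of the PGRMC1 interaction at 1 ng/mL (0.015). Without the replicate block, ESR1 turned sign for glucose in epithelial (0.014) and stromal cells (-0.021) and in the glucose interaction (0.029), and PGRMC1 was called at 1 ng/mL (-0.35) and 10 ng/mL (-0.45). The pairing changed no other call of a receptor gene. None of the values with a turned sign had been called.

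The following log2 differences changed sign on leaving out 1 replicate, none of them called but that of MUC1. Between cell types they were PGR -0.69 to 0.063, NR3C1 -0.62 to 0.20 and PGRMC1 -0.40 to 0.31 at 5 mM, then NR3C1 -0.14 to 0.056 and PGRMC2 -0.14 to 0.26 at 50 mM, then NR3C1 -0.13 to 0.098 with vehicle, then NR3C1 -0.15 to 0.21 and PGRMC2 -0.055 to 0.12 at 1 ng/mL, then NR3C1 -0.21 to 0.017 and PGRMC2 -0.046 to 0.087 at 10 ng/mL. For glucose they were ESR1 -0.30 to 0.17 and NR3C1 -0.067 to 0.49 in epithelial cells, then PGR -0.51 to 0.33, ESR1 -0.18 to 0.28 and NR3C1 -0.0068 to 0.10 in stromal cells. For insulin in epithelial cells they were ESR1 -0.044 to 0.0088, NR3C1 -0.0015 to 0.077, PGRMC1 -0.076 to 0.0061 and PGRMC2 -0.062 to 0.017 at 1 ng/mL, then PGR -0.097 to 0.0025, ESR1 -0.063 to 0.026 and NR3C1 -0.025 to 0.073 at 10 ng/mL, then ESR1 -0.070 to 0.065, NR3C1 -0.076 to 0.036 and PGRMC2 -0.045 to 0.0092 for 10 against 1 ng/mL. In stromal cells they were NR3C1 -0.049 to 0.0039 and PGRMC1 -0.042 to 0.0016 at 1 ng/mL, then ESR1 -0.026 to 0.15 and PGRMC1 -0.051 to 0.062 at 10 ng/mL, then PGRMC1 -0.052 to 0.096 and PGRMC2 -0.071 to 0.0084 for 10 against 1 ng/mL. The interactions were PGR -0.83 to 0.11, ESR1 -0.34 to 0.25, NR3C1 -0.16 to 0.47, PGRMC1 -0.12 to 0.41 and PGRMC2 -0.011 to 0.72 for glucose, then NR3C1 -0.014 to 0.12, PGRMC1 -0.066 to 0.054 and MUC1 -1.22 to 4.38 at 1 ng/mL, then ESR1 -0.13 to 0.0092 at 10 ng/mL. The cause was not tested. Fits on 2 replicates have few residual degrees of freedom. Depth left NR3C2 untested.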

Other observations

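The genes whose levels followed those of each receptor gene most closely were found by Pearson's r of log2(CPM + 1) over the 30 libraries, among 12875 protein-coding genes. For ESR1 these were ANK3 (r = 0.942), TJP1 (0.928) and PKP4 (0.926), which encode an ankyrin of the membrane skeleton, a tight junction protein and a plakophilin of cell junctions. For PGR they were SULT4A1 (0.853), SLC41A1 (0.850) and ENSBTAG00000051248 (0.836), which has no symbol in the tables. NR3C1 was followed most closely by CPEB4 (0.898), SEC62 (0.895) and AQR (0.887), PGRMC1 by LYPLA1 (0.879), TRMT6 (0.851) and ORC5 (0.844), and PGRMC2 by NDUFB3 (0.893), DDX3X (0.887) and ECHDC1 (0.886). The libraries share cell type, experiment and replicate, so these values are descriptions and carry no test.

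After the mean of each cell type in each experiment was subtracted, the highest values included those of SUSD2 (0.830), NLGN2 (0.783) and HNRNPUL1 (0.765) for PGR, of SLC16A7 (0.659) and MAOA (0.646) for ESR1, of PHTF2 (0.902), GPX8 (0.883) and SUPT20H (0.870) for NR3C1, of STIM2 (0.837), USP24 (0.830) and RMDN2 (0.828) for PGRMC1, and of PHTF2 (0.851), ECHDC1 (0.850) and TMEM30A (0.847) for PGRMC2. Among the receptor genes themselves, NR3C1 and PGRMC2 had r = 0.833 over the 30 libraries and 0.732 after the subtraction. The epithelial library of replicate 2 at 5 mM glucose was the lowest of the 30 for both, with 39.2 CPM of NR3C1 and 76.6 CPM of PGRMC2. What part it has in these values was not tested. PGR and ESR1 had -0.492 before and 0.472 after the subtraction. The value before the subtraction mixes differences between and within cell types and experiments, and CPM were scaled within each experiment. Replicate 3 of the stromal 5 mM group, with 42.9 CPM of PGR and 45.2 CPM of ESR1, held the most of both among the stromal libraries. What part it has in the value of 0.472 was not tested.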
